A study of Mus musculus with 6 samples.

Results

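REST, a zinc finger repressor, 2 of its corepressors and 7 regulators of alternative splicing were followed in the epithelium of the embryonic mouse esophagus with and without p63. The 10 genes were taken by name from the 23284 gene symbols of the count table: Rest, Rcor1, Rcor2, Srrm4, Ptbp1, Ptbp2, Nova1, Nova2, Esrp1 and Esrp2. All 10 had a row, and all 10 had enough counts to be tested. RNA was sequenced from 3 p63KO libraries and 3 control libraries, all from epithelium dissected from the esophagus at stage E12.5. The p63KO embryos were homozygous for the Trp63-CreERT2 allele, an insertion into the p63 gene itself, and the controls were littermates titled WT, with no alleles listed in their genotype label. The number of embryos behind a library is not given in the labels, and p-values therefore reflect library-to-library spread only.

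REST binds a DNA element called RE1 near neuronal genes and holds them silent outside the nervous system, and it works through the corepressors Sin3 and CoREST, where CoREST proteins are encoded by the Rcor genes. SRRM4 (nSR100), PTBP2 and the NOVA proteins are splicing factors of neurons; SRRM4 promotes the inclusion of neuronal microexons and also changes the splicing of Rest itself, and Srrm4 is in turn a target of REST. PTBP1 represses neuronal exons in most other cells and lowers PTBP2 through the splicing of Ptbp2 RNA. ESRP1 and ESRP2 set the splice forms of epithelial cells. Counts per gene do not separate splice forms, so exon use was not measured here.

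Total counts lay between 13335328 and 16506401 in p63KO and between 16948971 and 20093838 in control. Levels are given as CPM, counts brought to equal library size by TMM scaling, and 3 counts corresponded to between 0.153 and 0.223 CPM. Trp63, the targeted gene, was 76.7, 62.2 and 75.4 CPM in the p63KO libraries and 583.9, 674.1 and 550.6 CPM in the control libraries, as the labels have it. The second principal component, with 8.53% of the variance, mainly set control replicate 3 apart from the remaining 5 libraries. The epithelial markers Epcam, Cdh1, Krt8 and Krt18 were abundant in every library. Of 10 such markers 3 rose and 2 fell, beside 15.3% higher and 14.3% lower among all tested genes. The summed level of the 10 lay between 4185 and 4326 CPM in p63KO and between 4019 and 4290 CPM in control.

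Of the 10 genes, Srrm4, Nova2, Nova1 and Rcor2 rose in p63KO, Rest fell, and Ptbp1, Ptbp2, Rcor1, Esrp1 and Esrp2 did not pass the test. A gene was called changed at an adjusted p under 0.05 in the edgeR quasi-likelihood test over all 13849 genes tested. By that rule, 15.3% of all tested genes were higher and 14.3% lower in p63KO, 29.6% in all, against 4 and 1 of these 10. The median log2 fold change was -0.03 over the 10 genes and -0.01 over all tested genes. The libraries of p63KO and control did not overlap for 7 of the 10 genes, as for 44.1% of all tested genes. In bulk tissue, more cells that express a gene and more RNA per cell cannot be told apart.

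**Figure D1:**
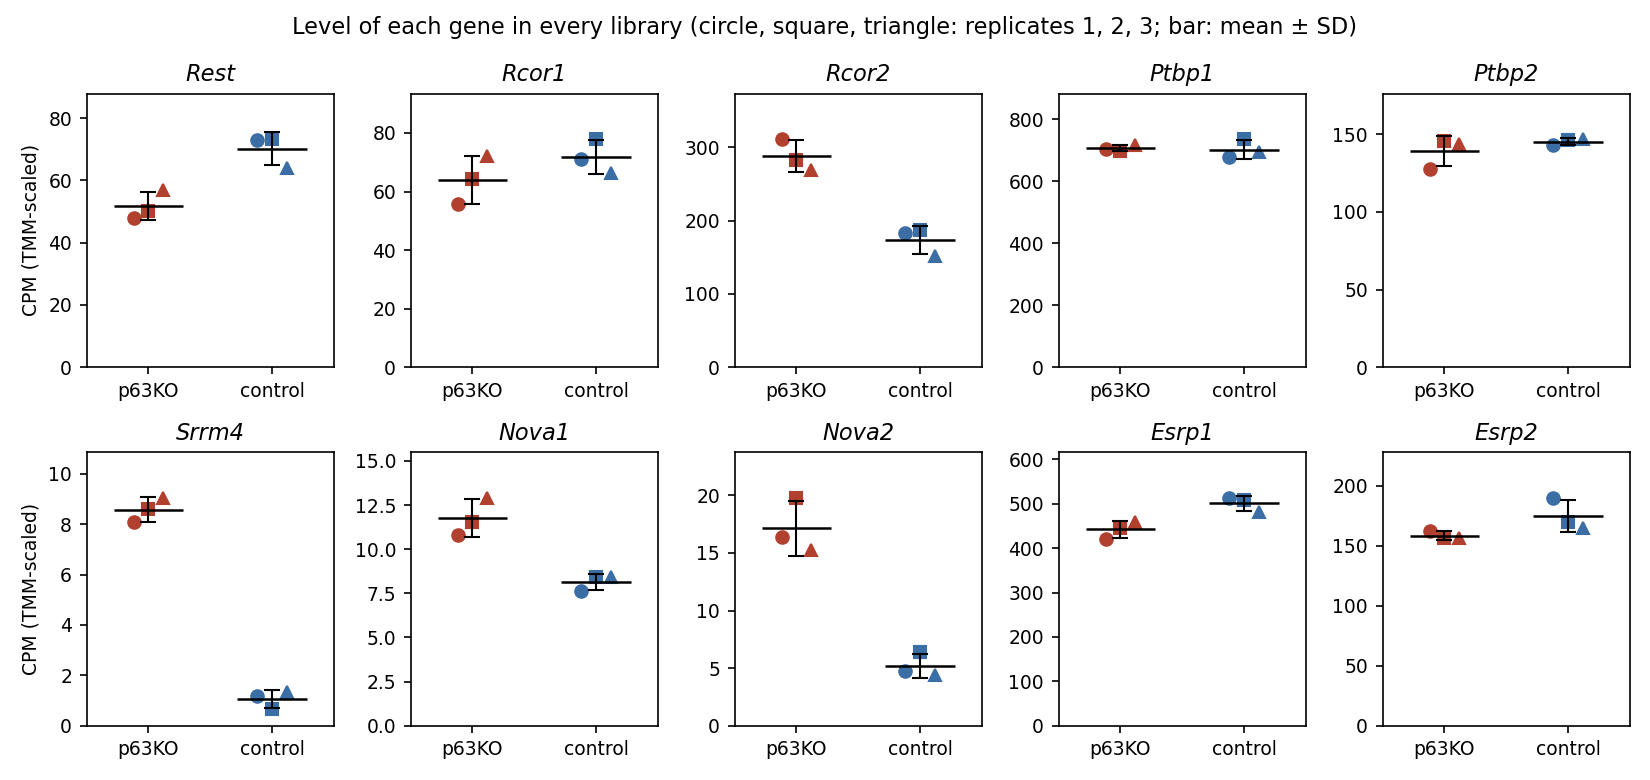
TMM-scaled CPM of each of the 10 genes in the 3 p63KO libraries (red) and the 3 control libraries (blue), with the mean and SD; each axis starts at 0. Srrm4, Nova1, Nova2 and Rcor2 lie higher in every p63KO library than in any control library, and Rest, Esrp1 and Esrp2 lie lower, while Rcor1, Ptbp1 and Ptbp2 overlap.

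Rest was 48.1, 50.3 and 57.0 CPM in p63KO replicates 1, 2 and 3, against 73.1, 73.3 and 64.1 CPM in control replicates 1, 2 and 3. All p63KO libraries were below all control libraries, with p63KO replicate 3 and control replicate 3 nearest to each other. Rest fell by 0.44 on the log2 scale (SE 0.09, edgeR adjusted p = 0.0044), to 73.7% of its control level. Rest RNA was thus still present in p63KO at 51.8 ± 4.62 CPM, against 70.2 ± 5.25 CPM in control (SD, n = 3 each).

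Rcor2, the corepressor gene that in mouse is prominent in neural and pluripotent stem cells, was 311.4, 283.5 and 269.0 CPM in the p63KO libraries, against 183.1, 186.6 and 151.6 CPM in the control libraries. The groups were far apart relative to the spread within them. Rcor2 rose 1.66-fold (95% interval 1.44 to 1.91, edgeR adjusted p = 0.00029). Rcor1, the broadly expressed CoREST gene, was 55.8, 64.1 and 72.0 CPM in p63KO and 71.0, 77.9 and 66.3 CPM in control. Its groups overlapped, and its log2 fold change of -0.17 (SE 0.10) did not pass (edgeR adjusted p = 0.257). The ratio of Rcor2 to Rcor1 counts was 5.58, 4.42 and 3.74 in the p63KO libraries and 2.58, 2.40 and 2.29 in the control libraries, so the balance of the corepressor pair differed by 0.90 on the log2 scale.

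Around these genes, a list of 22 genes of REST, its corepressors and the enzymes that act with or on them was measured, and all 22 were tested. In this list 2 genes rose and 4 fell, while 16 did not pass, that is 9.09% higher and 18.2% lower, beside the 15.3% and 14.3% of all tested genes. The list median was -0.04 on the log2 scale. The genes that fell were Rest and the 3 small phosphatase genes Ctdspl, Ctdsp2 and Ctdsp1, whose products bind REST and help to silence neuronal genes outside neurons. Ctdspl was 64.3 ± 6.20 CPM in p63KO and 142.1 ± 17.7 CPM in control, a log2 fold change of -1.14 (SE 0.11). Ctdsp2 fell by 0.32 (SE 0.06) and Ctdsp1 by 0.22 (SE 0.06) on the log2 scale. The Ctdsp1 call was lost without p63KO replicate 2 or 3 or control replicate 1 or 3 (edgeR adjusted p between 0.0575 and 0.137) and with library totals as the scaling (0.0607).

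Beside Rcor2, the gene of this list that rose was Kdm1a, the histone demethylase LSD1 of the CoREST complex. It was 294.7 ± 10.5 CPM in p63KO and 257.7 ± 10.5 CPM in control (log2 fold change 0.19, SE 0.06, edgeR adjusted p = 0.036). That call was lost without p63KO replicate 1 or 3 or control replicate 1 or 3 (edgeR adjusted p between 0.0768 and 0.125) and without the filter (0.0545). Hdac2, with the highest mean CPM of the list, was 320.2 ± 10.2 CPM in p63KO and 329.8 ± 27.7 CPM in control and did not pass. Sin3a, Sin3b, Ehmt1, Ehmt2 and Hmg20b did not pass either.

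Srrm4 was the member with the largest fold change. It had 137, 124 and 122 counts in p63KO replicates 1, 2 and 3, against 22, 13 and 23 counts in control replicates 1, 2 and 3. On the scaled level these were 8.09, 8.59 and 9.06 CPM in p63KO and 1.18, 0.66 and 1.35 CPM in control. The p63KO libraries lay close together, and the lowest of them was well above the highest control library. Srrm4 rose 8.04-fold (95% interval 5.24 to 12.3), a log2 fold change of 3.01 (SE 0.27, edgeR adjusted p = 4.0e-05). Over all tested genes, 3.26% were called and at least 4-fold higher in p63KO. Srrm4 passed the filter on low counts by its control libraries alone, as did the other 9 genes.

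Nova2, a KH-domain RNA-binding protein gene of the developing brain, was 16.3, 19.8 and 15.2 CPM in the p63KO libraries, against 4.73, 6.38 and 4.42 CPM in the control libraries. Every p63KO library was above every control library, and Nova2 rose 3.30-fold (95% interval 2.46 to 4.42, edgeR adjusted p = 0.00012). Nova1, its paralog, was 10.8, 11.6 and 12.9 CPM in p63KO and 7.63, 8.43 and 8.42 CPM in control. The Nova1 groups were separate too but closer, and it rose 1.44-fold (95% interval 1.15 to 1.81, edgeR adjusted p = 0.023). The Nova1 call was lost without p63KO replicate 3 (edgeR adjusted p = 0.0881) or control replicate 1 (0.0738).

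The intervals of the Nova2 and Nova1 fold changes did not overlap. The ratio of Nova2 to Nova1 counts was 1.51, 1.71 and 1.18 in p63KO replicates 1, 2 and 3, against 0.62, 0.76 and 0.52 in control replicates 1, 2 and 3. No library of p63KO overlapped with one of control in this ratio, which was 1.47 ± 0.27 in p63KO and 0.63 ± 0.12 in control (SD, n = 3 each).

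Ptbp2, listed here with the neuronal factors, was 128.0, 145.4 and 144.1 CPM in the p63KO libraries and 143.2, 146.1 and 147.0 CPM in the control libraries. The groups overlapped, and the log2 fold change was -0.06 (SE 0.07, edgeR adjusted p = 0.526), with a 95% interval from 0.863-fold to 1.06-fold. Ptbp1, its paralog and repressor, was 703.9, 699.4 and 718.5 CPM in p63KO and 677.2, 736.3 and 694.4 CPM in control. Its groups overlapped, and its interval ran from 0.918-fold to 1.10-fold (edgeR adjusted p = 0.927). The ratio of Ptbp2 to Ptbp1 counts was 0.197 ± 0.013 in p63KO and 0.207 ± 0.008 in control and overlapped between the groups.

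**Figure D2:**
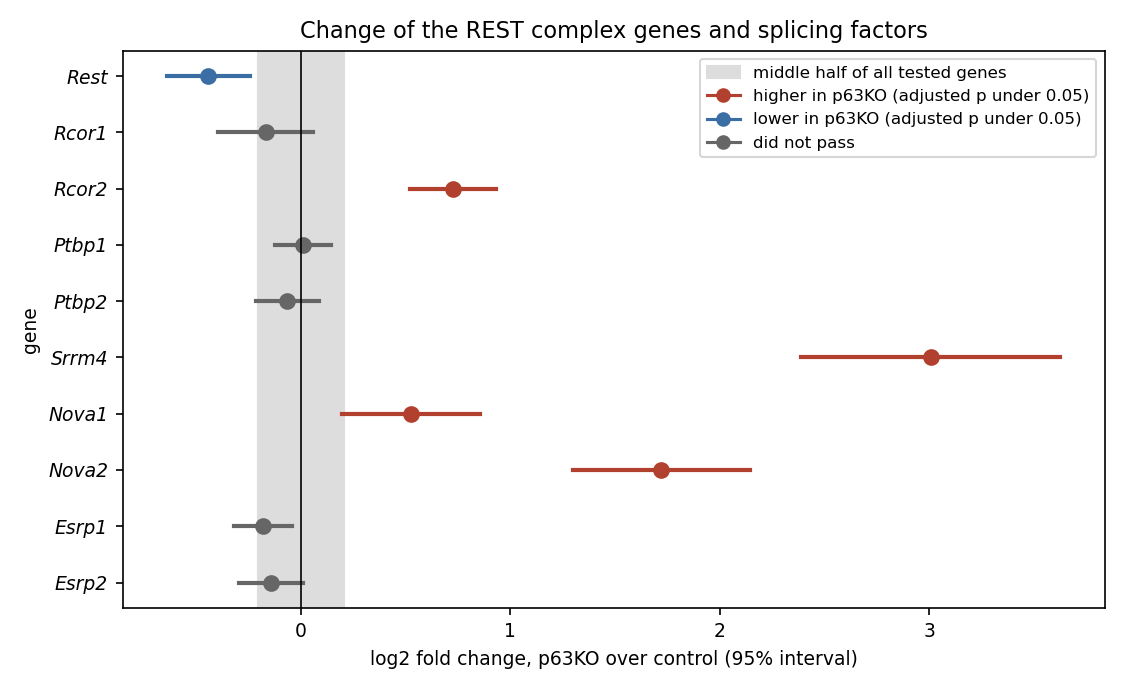
Log2 fold change of each gene, p63KO over control, with its 95% interval from the edgeR fit; the grey band spans the middle part (25th to 75th percentile) of all tested genes. Srrm4 at 3.01 and Nova2 at 1.72 lie farthest from 0, Rcor2 at 0.73 and Nova1 at 0.53 follow, and Rest lies at -0.44.

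Promoter sequences are shown for the 3 genes that rose most, Srrm4, Nova2 and Rcor2, and for Ptbp1, which did not pass, to set their start regions side by side. RefSeq promoters (build GRCm38.p6, from 250 bases before to 50 bases after the gene start) were found for 7 of the 10 genes, all but Rest, Esrp1 and Esrp2. Capitals mark matches, on either strand, to CAGATG, the E-box form favoured by neurogenin and NeuroD factors, to CACCTG, an E-box form bound by Zeb and Snai factors, and to CAGCACC and GGACAG, the left and right parts of RE1. The windows are chr5:116591768-116592067 on the minus strand, chr7:18925638-18925937 on the plus strand, chr19:7267144-7267443 on the plus strand and chr10:79854182-79854481 on the plus strand, each written 5′ to 3′ on the strand of the gene.
Srrm4 promoter: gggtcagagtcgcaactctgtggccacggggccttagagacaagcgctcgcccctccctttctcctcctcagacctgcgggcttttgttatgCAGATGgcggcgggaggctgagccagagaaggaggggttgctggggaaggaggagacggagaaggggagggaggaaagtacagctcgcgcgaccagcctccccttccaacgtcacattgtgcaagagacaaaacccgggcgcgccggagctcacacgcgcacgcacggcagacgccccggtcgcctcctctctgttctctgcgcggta
Nova2 promoter: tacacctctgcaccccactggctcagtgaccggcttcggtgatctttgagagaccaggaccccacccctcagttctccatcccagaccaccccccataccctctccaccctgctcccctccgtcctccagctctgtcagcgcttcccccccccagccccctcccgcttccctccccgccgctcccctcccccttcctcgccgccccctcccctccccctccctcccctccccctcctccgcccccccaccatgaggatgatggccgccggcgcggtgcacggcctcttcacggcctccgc
Rcor2 promoter: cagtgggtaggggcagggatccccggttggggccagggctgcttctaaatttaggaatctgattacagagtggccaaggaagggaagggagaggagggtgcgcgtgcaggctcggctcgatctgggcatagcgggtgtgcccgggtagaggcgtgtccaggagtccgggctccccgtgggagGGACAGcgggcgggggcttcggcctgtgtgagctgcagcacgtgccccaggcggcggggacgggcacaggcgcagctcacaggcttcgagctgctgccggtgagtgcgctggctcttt
Ptbp1 promoter: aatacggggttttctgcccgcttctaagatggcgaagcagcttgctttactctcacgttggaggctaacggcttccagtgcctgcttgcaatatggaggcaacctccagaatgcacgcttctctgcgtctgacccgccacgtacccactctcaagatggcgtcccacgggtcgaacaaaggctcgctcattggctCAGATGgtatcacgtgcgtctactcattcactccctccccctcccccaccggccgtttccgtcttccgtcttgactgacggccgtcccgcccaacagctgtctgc

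The Srrm4 window held CAGATG from base -158 to base -153, counted from the gene start as base 0, and no other match. The Ptbp1 window held the same CAGATG letters from base -55 to base -50, so this match stood before a gene that rose and before a gene that did not pass. In the Rcor2 window GGACAG lay from base -68 to base -63, and the Nova2 window held none of these letters. Among the other windows, Ptbp2 had GGACAG as its reverse complement from base -174 to base -169, and Rcor1 and Nova1 had no match. CAGCACC and CACCTG were in none of the 7 windows. Of 32851 promoters of this length, 17.2% held CAGATG, 20.2% CACCTG, 7.14% CAGCACC and 22.2% GGACAG, so matches of this kind are common. These searches describe letters and not binding.

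The epithelial splicing factors were measured beside the neuronal ones. Esrp1 was 420.5, 446.1 and 460.0 CPM in p63KO replicates 1, 2 and 3, against 513.9, 508.2 and 481.2 CPM in control replicates 1, 2 and 3. All p63KO libraries were slightly below all control libraries. The fold change was 0.882 (95% interval 0.801 to 0.972), and Esrp1 did not pass (edgeR adjusted p = 0.0554). It passed, in the same direction, with DESeq2 (adjusted p = 0.0274), limma-voom (0.0436) and the filter of 1 CPM in 3 libraries (edgeR adjusted p = 0.0477).

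Esrp2 was 162.5, 156.6 and 156.2 CPM in the p63KO libraries and 190.1, 169.4 and 165.0 CPM in the control libraries. The groups were again adjacent without overlap, and the fold change of 0.906 (95% interval 0.815 to 1.01) did not pass (edgeR adjusted p = 0.156). The ratio of Esrp1 to Esrp2 counts was 2.79 ± 0.18 in p63KO and 2.87 ± 0.15 in control (SD, n = 3 each), with overlapping libraries. Rbm47, another RNA-binding regulator of epithelial splicing, was 36.4 ± 0.83 CPM in p63KO and 29.9 ± 6.57 CPM in control and did not pass (log2 fold change 0.28, SE 0.14). Without control replicate 3 it was higher by 0.47 (edgeR adjusted p = 0.0076).

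Set side by side, 3 of the 4 neuronal factors rose, beside 15.3% of all tested genes that were higher. The log2 fold changes of these 3 ran from 0.53 to 3.01, while the fourth, Ptbp2, was at -0.06. The Nova1 call among them was lost without p63KO replicate 3 or control replicate 1. The 2 epithelial factors were at -0.18 and -0.14. The 95% intervals of Srrm4, Nova2 and Nova1 lay above 0 and did not overlap those of Esrp1 and Esrp2, whereas the interval of Ptbp2 (-0.21 to 0.09) overlapped both. The difference between the 2 classes was not tested, since the genes of a class are not replicates. In each library, Srrm4 had 0.0192, 0.0193 and 0.0197 counts per Esrp1 count in p63KO, against 0.0023, 0.0013 and 0.0028 in control. The groups did not overlap in this ratio.

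**Figure D3:**
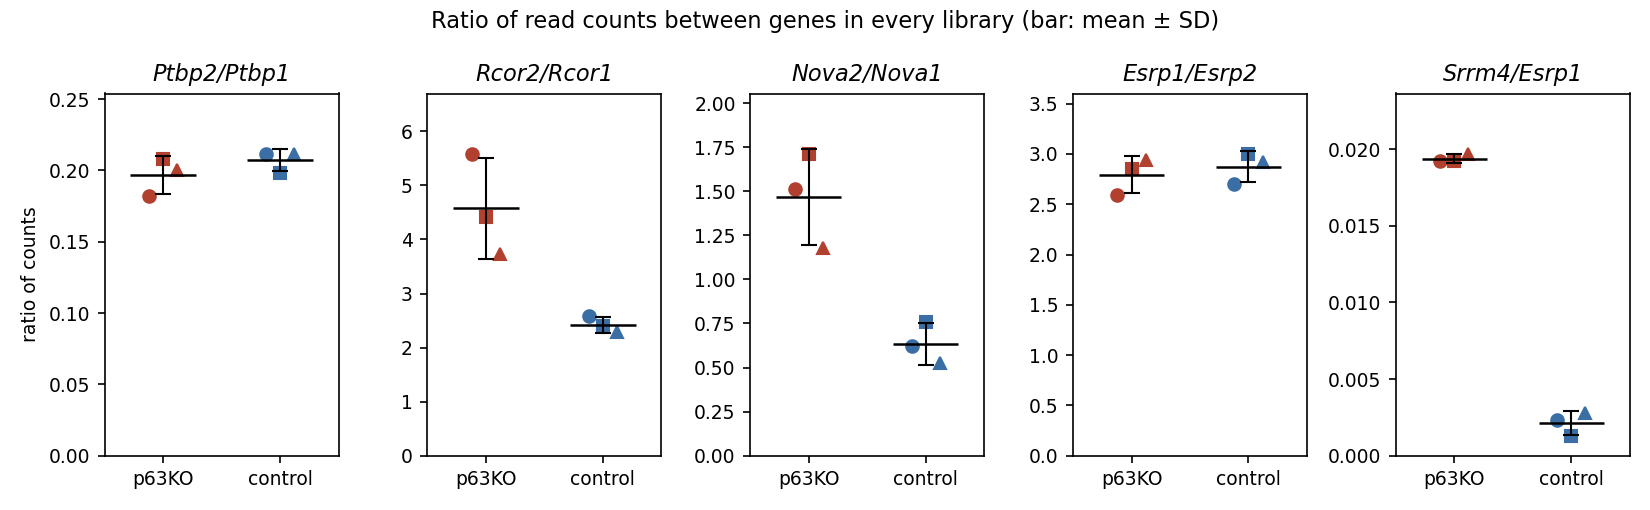
Ratio of the read counts of 2 genes in the 3 p63KO libraries (red) and the 3 control libraries (blue), with the mean and SD; each axis starts at 0. The ratios of Rcor2 to Rcor1, Nova2 to Nova1 and Srrm4 to Esrp1 are higher in every p63KO library, and those of Ptbp2 to Ptbp1 and Esrp1 to Esrp2 overlap.

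To compare levels between genes, CPM was divided by the merged exon length of each gene in GENCODE M21, which is not the annotation behind the counts. Ptbp1 was highest in both groups, with 205.1 ± 2.88 CPM per kilobase in p63KO and 203.7 ± 8.82 in control. It was followed by Esrp1 (111.4 ± 5.05 in p63KO and 126.3 ± 4.41 in control) and Rcor2 (102.0 ± 7.64 in p63KO and 61.5 ± 6.84 in control). In p63KO the libraries of Esrp1 and Rcor2 overlapped in CPM per kilobase, and in control those of Rcor2 and Esrp2 did. Every other pair of neighbours in the order was separate.

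Esrp2, Ptbp2, Rcor1 and Rest came next in that order in both groups, from 44.8 down to 7.17 CPM per kilobase in p63KO and from 49.4 down to 9.72 in control. At the low end, Nova2 (2.05 ± 0.29), Nova1 (1.64 ± 0.15) and Srrm4 (1.12 ± 0.06) followed in p63KO. In control the order was Nova1 (1.14 ± 0.06), Nova2 (0.62 ± 0.13) and Srrm4 (0.14 ± 0.05), so Nova1 and Nova2 changed places. The neuronal factors that rose thus remained the 3 lowest of the 10 genes per length in p63KO.

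**Figure D4:**
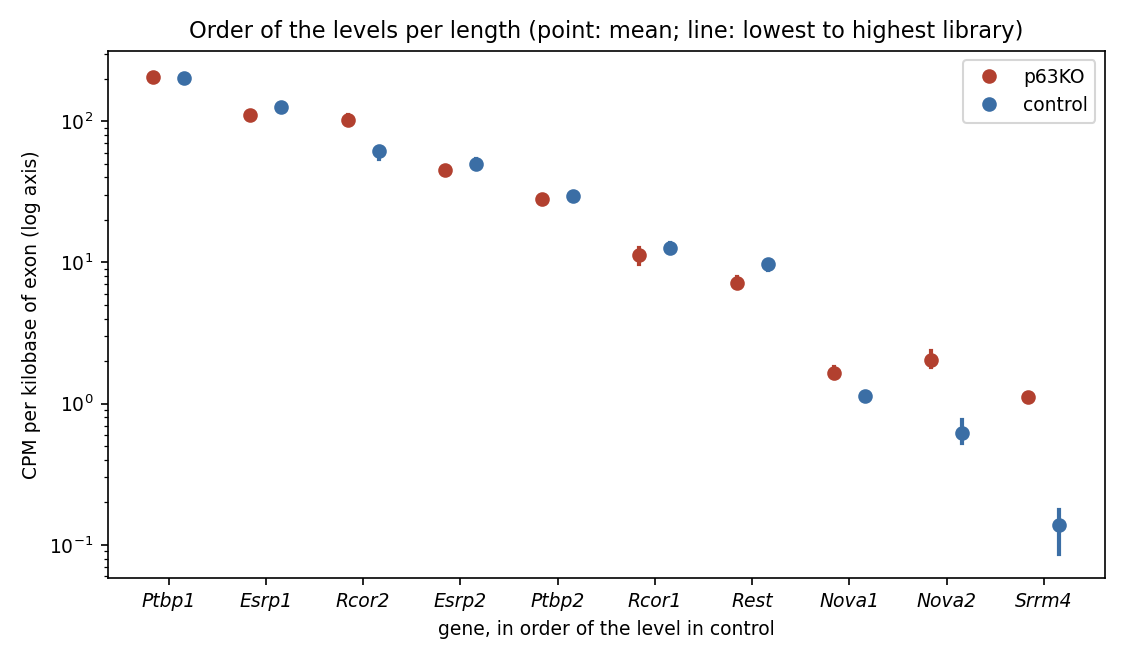
Level of the 10 genes in CPM per kilobase of exon on a log axis, with p63KO (red) left of control (blue); points are means of 3 libraries and lines run from the lowest to the highest library. The genes span from Ptbp1 at 205.1 in p63KO and 203.7 in control to Srrm4 at 1.12 in p63KO and 0.14 in control.

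A wider list of 17 splicing and RNA-binding factors of neurons held 16 tested genes, of which 13 rose, none fell and 3 did not pass (81.2% higher, beside 15.3% of all tested genes). Srrm4, Nova1, Nova2 and Ptbp2 belong to this list, and of the other 12 tested genes 10 rose. Of the 16, 4 passed the filter on low counts only through their p63KO libraries, which favours rises in such a count; of the 12 that passed by their control libraries alone, 9 rose. Khdrbs2 was not tested, with 0.15 ± 0.08 CPM in p63KO and 0.06 ± 0.06 CPM in control.

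Celf3, a neuronal CELF-family splicing factor, was 76.4 ± 14.3 CPM in p63KO and 1.10 ± 0.58 CPM in control, a log2 fold change of 6.14 (SE 0.26). The neuronal Hu proteins Elavl3 and Elavl4 rose with log2 fold changes of 5.85 and 3.05. Srrm3, the paralog of Srrm4 that also acts on microexons, was 4.34 ± 1.02 CPM in p63KO and 0.29 ± 0.08 CPM in control (log2 fold change 3.87, SE 0.35). Elavl3 and Srrm3 were among the 4 genes that passed the filter only through their p63KO libraries. Rbfox1, of the Fox splicing factors, was 20.9 ± 7.01 CPM in p63KO and 3.95 ± 0.17 CPM in control (log2 fold change 2.40, SE 0.23). Smaller was the rise of Khdrbs3, at 84.9 ± 7.29 CPM in p63KO and 61.8 ± 5.48 CPM in control (log2 fold change 0.46, SE 0.09). Beside Ptbp2, the genes that did not pass were Msi1 and Celf5; Msi1, a Musashi protein also found in epithelial progenitors, was 102.3 ± 14.5 CPM in p63KO and 83.9 ± 11.7 CPM in control.

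Genes reported as REST targets were measured as a further list. It was chosen from general knowledge of RE1 genes, with earlier results of these data known. Of 41 listed, 30 were tested, 28 rose, none fell and 2 did not pass, beside 15.3% of all tested genes that were higher. Of the 30, 11 passed the filter only through their p63KO libraries; of the other 19, 17 rose. The list median was 2.99 on the log2 scale, and Srrm4 is 1 of the 30. Chga, Chgb and Scg3 are in this list and also among the neuroendocrine markers given below. Celsr3, a seven-pass cadherin of neurons, was 35.6 ± 4.0 CPM in p63KO and 1.07 ± 0.35 CPM in control. Tubb3, the neuronal beta-tubulin, was 90.7 ± 13.8 CPM in p63KO and 1.74 ± 0.85 CPM in control, and Rundc3a was 33.5 ± 6.40 CPM in p63KO and 4.37 ± 0.56 CPM in control.

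Cplx2, a complexin of regulated exocytosis with the highest mean CPM of that list, rose by 1.53 on the log2 scale (SE 0.17). The 2 tested targets that did not pass were the chloride transporter gene Slc12a5, with 8.12 ± 2.69 CPM in p63KO and 9.01 ± 1.8 CPM in control, and the sodium channel gene Scn2a1, with 1.32 ± 0.61 CPM in p63KO and 1.13 ± 0.26 CPM in control. Each of the 11 untested targets, among them Grin1, Calb1 and Neurod2, averaged under 1 CPM in both groups. Gjd2, the only one of them whose groups did not overlap, had 30, 3 and 11 counts in p63KO and 1, 0 and 1 in control. With DESeq2, 29 of the 41 listed targets were higher. The rises of these targets therefore did not extend to every tested gene of the list. No tested gene of this list or of the wider neural list was lower by edgeR, DESeq2 or limma-voom, or at unadjusted edgeR p under 0.05. Rest itself remained at 73.7% of its control level beside them.

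**Figure D5:**
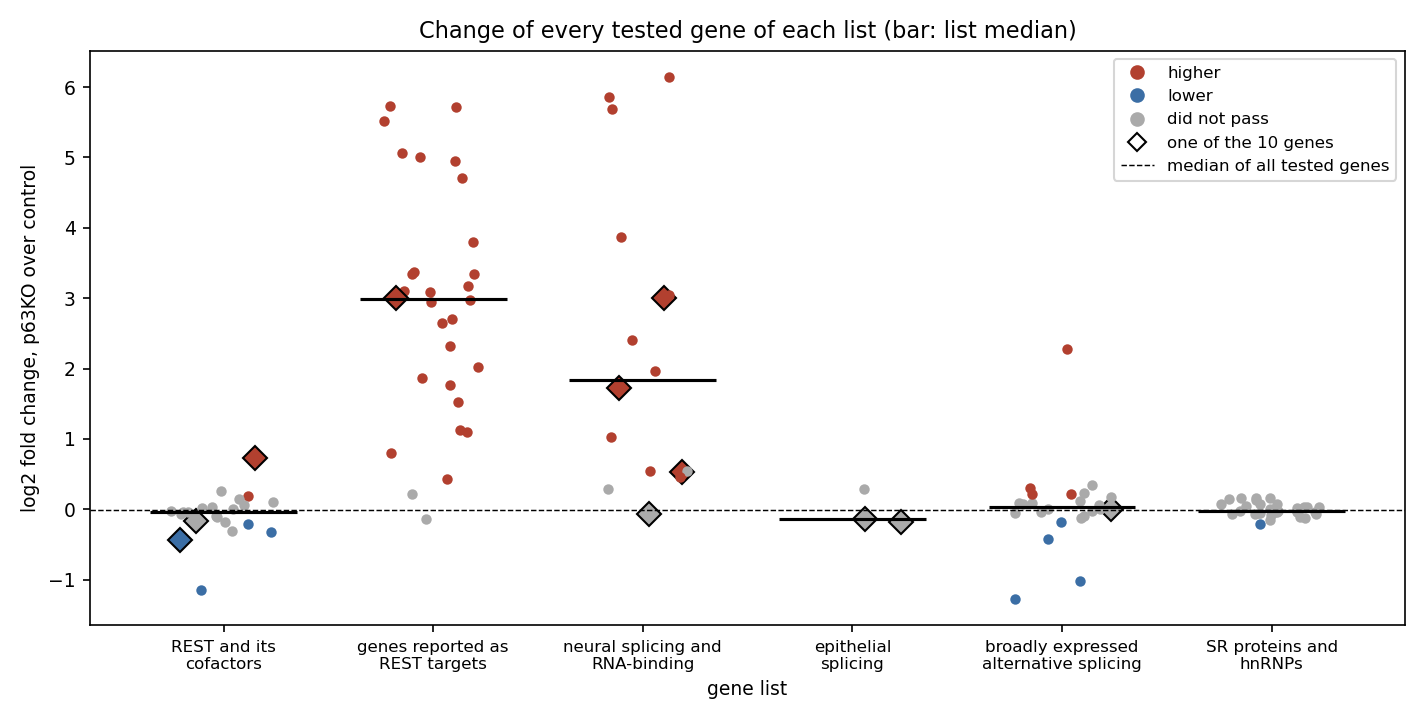
Log2 fold change, p63KO over control, of every tested gene of 6 lists; diamonds are the 10 genes, colours give the call, bars are list medians and the dashed line is the median of all tested genes. The medians are 2.99 for the reported REST targets and 1.84 for the neural factors, and lie between -0.14 and 0.03 for the other 4 lists.

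Splicing factors, most but not all of them broadly expressed, were also measured. Srsf12 among them was low, with 4.81 ± 0.91 CPM in p63KO and 4.94 ± 0.86 CPM in control. Of 33 tested SR proteins and hnRNPs, the general splicing machinery that binds exons and introns, none rose and 1 fell (3.03%, beside 29.6% of all tested genes); the log2 fold changes of the 33 lay between -0.21 and 0.16. Higher in p63KO were 1 of the 33 at an unadjusted edgeR p under 0.05, 1 with DESeq2 and 0 with limma-voom. The gene that fell was Hnrnpa0, and its call was lost without p63KO replicate 2 or 3 or control replicate 1 or 2, with upper-quartile scaling, with library totals and without the filter (edgeR adjusted p between 0.07 and 0.193). The summed level of the 33 genes lay between 17904 and 18927 CPM in p63KO and between 17488 and 19285 CPM in control.

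Of 24 tested regulators of alternative splicing with broad expression, Ptbp1 among them, 4 rose, 4 fell and 16 did not pass, so 33.3% were called (16.7% in each direction), close to the 29.6% of all tested genes (15.3% higher and 14.3% lower). Mbnl2, a muscleblind protein that drives adult splice forms, was 103.1 ± 10.7 CPM in p63KO and 248.9 ± 15.7 CPM in control (log2 fold change -1.27, SE 0.09). Mbnl3 fell by 0.43 (SE 0.06) on the log2 scale, and Zfp36l1, a protein that destabilises AU-rich mRNAs, fell by 1.02 (SE 0.09). Rbm24, a splicing regulator best known from muscle, was 34.2 ± 1.61 CPM in p63KO and 7.09 ± 2.49 CPM in control (log2 fold change 2.27, SE 0.22). Without control replicate 1, 2 or 3, 2 of these genes rose in place of 4.

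Markers of other cells that could carry neuronal factors were measured beside these rises. All 10 neuroendocrine markers rose, beside 15.3% of all tested genes that were higher. Their summed level lay between 413.8 and 534.4 CPM in p63KO and between 1.74 and 6.18 CPM in control. Of the 10, 9 passed the filter only through p63KO, which favours rises in such a count. The 1 marker that passed by its control libraries also rose. Chga, Chgb and Scg3 among these markers are also in the list of reported REST targets, so the 2 lists are not separate observations. The part of neuroendocrine cells in the rises of Srrm4, Nova1, Nova2 and the wider list was not tested. Of 14 markers of neural crest, enteric neurons and glia, 9 were tested. None of these rose and 1 fell, beside 15.3% higher and 14.3% lower among all tested genes. The summed level of the 14 lay between 155.1 and 182.8 CPM in p63KO and between 162.3 and 175.8 CPM in control. The glial and neural crest marker Sox10 was near 0 (1.26 ± 0.72 CPM in p63KO and 3.26 ± 1.82 CPM in control), and most of the sum was Erbb3 (145.3 ± 16.8 CPM in p63KO and 142.4 ± 3.06 CPM in control), which epithelium also expresses. At an unadjusted edgeR p under 0.05, 1 of the 9 was higher and 3 were lower in p63KO. With DESeq2, 0 were higher and 1 was lower, and with limma-voom 0 passed in either direction.

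Of 12 mesenchyme markers, 2 rose, Dcn and Twist1, and 5 fell, beside 15.3% higher and 14.3% lower among all tested genes. The 5 that fell were Col1a1, Col3a1, Pdgfra, Pdgfrb and Foxf1a, and the list median was -0.985 on the log2 scale. Col1a1 was 44.0 ± 23.1 CPM in p63KO and 93.7 ± 24.7 CPM in control. The summed level of the 12 lay between 1261 and 1656 CPM in p63KO and between 454.9 and 539.9 CPM in control. Dcn alone was between 1053 and 1342 CPM in p63KO and between 113.5 and 211.1 CPM in control, so it made up most of the sum in p63KO but not in control. Between 1 and 5 of these markers fell when each library was left out in turn, with the lowest count without control replicate 1. The part of mesenchyme in the changes of Rest, Rcor2 and the splicing factors was not tested. Of 7 endothelial markers 5 were tested and of 7 blood markers 3, and none of them passed in the edgeR test, with DESeq2 or with limma-voom, or at an unadjusted edgeR p under 0.05.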

How the data were processed

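RNA from 3 p63KO and 3 control samples was analysed as raw counts per gene symbol, deposited by the authors as whole numbers with no normalization. The submitters' processing notes name build mm9, TopHat2 2.1.0, bcl2fastq 1.8.4 and DESeq2 without a version. The counter, the annotation and the strandedness were not given in the sources used here; overlapping and antisense genes cannot be told apart. Columns were tied to samples by the names in the sample descriptions.

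The fit was made with edgeR 4.0.16 in R 4.3.3. Of 18572 genes with a count, filterByExpr (minimum count 10, minimum total 15) kept 13849. Libraries were scaled by TMM, and the quasi-likelihood test compared p63KO to control, with no term other than group and Benjamini-Hochberg adjustment over all genes tested. The standard error (SE) was the log2 fold change divided by the square root of F, and 95% intervals used the t distribution of the fit. The test was tried on simulated counts. Within a group, no pair of libraries agreed within sampling noise (chi-square per degree of freedom from 7.53 to 15.3).

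The 10 genes and the gene lists were chosen with earlier results of these data known, so list counts and medians are descriptions. Named were the 10 genes, Trp63 and, of each list, the 3 tested genes with the lowest p, the gene with the highest mean CPM and called genes that moved against the list's majority. Not all of these are printed, and those printed, like the further genes named, were picked after their values were seen. Sequences came from RefSeq tables of build GRCm38.p6. Alternatives were DESeq2 1.42.0, limma-voom (limma 3.58.1), 2 scalings, 2 filters, a block for the replicate number, leaving out each library, robust dispersions and an adjusted p under 0.01.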

Additional observations from a re-analysis of the deposited data

How the results depend on the processing

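Srrm4, Nova2, Rcor2 and Rest kept their direction and call in all 14 alternatives to the fit, with log2 fold changes from 2.75 to 3.21, 1.62 to 1.90, 0.64 to 0.78 and -0.51 to -0.39. Rcor1, Ptbp2 and Esrp2 passed in none of them. Nova1 lay between 0.45 and 0.59 with a library left out, and Esrp1 was at -0.18 in each of the 3 settings in which it passed, so that 2 of the 10 genes were lower with DESeq2, limma-voom and the filter of 1 CPM. Ptbp1 changed sign, between -0.018 and 0.043 with a library left out. Among list genes that did not pass, the sign turned with 1 library left out for Hdac2 (-0.082 to 0.027, above 0 without control replicate 2), Slc12a5 (-0.44 to 0.041, above 0 without p63KO replicate 3) and Scn2a1 (-0.20 to 0.48, below 0 without p63KO replicate 3). The causes were not tested.

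At an adjusted p under 0.01, 1353 genes were higher and 1227 lower over all genes. Nova1 (edgeR adjusted p = 0.023) was no longer called at that threshold, nor were Celf4 and Rbfox3 of the neural list. There, 1 REST cofactor gene and 2 genes of the broad splicing list were higher. At that threshold 0 SR or hnRNP genes, 0 neural crest markers and 0 mesenchyme markers were lower. Of SR and hnRNP genes, 1 was higher with DESeq2, upper-quartile scaling, library totals and the replicate block, and 0 were lower with both scalings and without the filter. Without the filter 1 REST cofactor gene was higher. Of the epithelial splicing genes, 1 was lower with DESeq2, limma-voom and the filter of 1 CPM. Of mesenchyme markers, 3 were lower with DESeq2 and with robust dispersions, and 1 was higher with robust dispersions. With limma-voom and the replicate block, 0 neural crest markers were lower. With a library left out, 1 to 2 REST cofactor genes and 0 to 1 epithelial splicing genes were higher. So were 2 to 4 genes of the broad splicing list, 0 to 1 neural crest markers and 0 to 2 blood markers. Lower were 0 to 1 SR or hnRNP genes, 0 to 2 neural crest markers and 1 to 5 mesenchyme markers.

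Deviations from the group means correlated at 0.16, 0.26 and 0.03 between same-numbered libraries of the groups. Between libraries of unlike number the correlations ran from -0.22 to 0.059, and control replicate 3 correlated best with p63KO replicate 1. The numbers were not taken as pairs because the labels do not state a pairing, and these correlations do not settle it. With the replicate block, 2397 genes were higher and 2381 lower, 4 and 1 of the 10 genes among them, and Msi1 passed (log2 fold change 0.28). At the depth of these libraries Srrm4 rested on 13 to 23 counts in each control library, which limits the precision of its fold change.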
